A study of Rattus norvegicus with 24 samples.

Results

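The genes of the extracellular scaffold and of its receptors were described across 4 structures of the brain and pituitary of the rat: every gene on the array with a symbol of the form Col and 2 numbers joined by the letter a (collagen chains), Lama, Lamb or Lamc and a number (laminin chains), or Itga or Itgb with its suffix (integrin subunits). This gave 74 of the 14217 genes that the array names singly: 41 collagens, 10 laminins and 23 integrins. Itgb1bp1, Itgb1bp2 and Itgb3bp, which encode partners of integrin tails, were left out, and Itgbl1, an integrin-like secreted protein that is no receptor subunit, was kept because its symbol fits. A gene was read from its brightest probe set, and values are intensities, a linear signal. All rats were males of 10 to 13 weeks (10 to 12 for 1 NIL array). Arrays from the spontaneously hypertensive rat (SHR) covered the neurointermediate lobe of the pituitary (NIL, 5 arrays), the paraventricular nucleus (PVN, 5) and supraoptic nucleus (SON, 4) of the hypothalamus, and the rostral ventrolateral medulla (RVLM, 5). The normotensive Wistar-Kyoto rat (WKY) was represented by 5 RVLM arrays. Each array held RNA pooled from 5 rats, so n counts pools. The labels do not say whether 1 set of rats gave several structures, and pools were treated as independent. Both strains are inbred lines that differ at many loci besides those for blood pressure.

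Collagens are trimers. Fibrillar types I, III and V build the tough fibrils of meninges, capsules and vessel walls, type IV chains form the sheet of basement membranes, and laminins, trimers of an alpha, a beta and a gamma chain, form the second sheet. Integrins are pairs of an alpha and a beta subunit that bind these sheets from the cell side. In the brain, basement membranes lie under the vascular endothelium and under the pia, fibrils are sparse outside the meninges and larger vessels, and the pituitary lobes are wrapped and crossed by connective tissue with capillaries that lack a tight barrier.

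The labels were checked against marker genes. Summed intensity of vasopressin and oxytocin was 7331 to 10518 in PVN and 8776 to 10405 in SON. It was 2386 to 3390.3 in NIL and 20.1 to 32.5 in SHR RVLM, and that of the melanotroph markers was 2108 to 3102 in NIL against 176 at most elsewhere. Anterior pituitary hormones were also read in NIL, with a sum of 2946 to 16654. PVN array 3 stood apart: its mean Spearman correlation was 0.912 with the other PVN arrays and 0.936 with SON, and its parvocellular and lateral hypothalamic markers summed to 477 against 4154 to 5688 on the other 4. Differences of named genes against the PVN, and counts of them, are given with and without it. The median intensity of the arrays ran from 35.9 to 46.5. In these bulk samples, fewer cells of a type and less RNA per cell cannot be told apart.

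Upstream sequences are shown first for genes whose values carry the comparisons, as RefSeq gives them on build GRCr8, up to the annotated start. A RefSeq promoter entry was found for 57 of the 74 genes by symbol. Capitals mark 3 motifs that were searched on both strands and do not overlap here. The first was TATAAA, a core promoter element. The second was CCAAT, which binds a common activator. The third was GGGCGG, known as the GC box. A match on the minus strand appears as its reverse complement. In the 250 bases before the start, these letters occur in 12.9%, 34.0% and 30.5% of all 33469 promoter entries, and in 6, 14 and 32 of the 60 entries of the collagen, laminin and integrin genes. Col1a2 and Col5a2, chains of fibrillar types I and V, are shown because they were bright in NIL and on PVN array 3, Col13a1 because it was bright in NIL, and the stretch between Col4a2 and Col4a1 because these genes start head to head, 76 bases apart. Col1a2 is read on the plus strand of chr4:33518307-33518556, Col5a2 on the minus strand of chr9:55090152-55090401, Col13a1 on the minus strand of chr20:30466801-30467050, and the stretch of chr16:84885521-84885596 on the plus strand, with Col4a2 leaving to the left and Col4a1 to the right.
Col1a2: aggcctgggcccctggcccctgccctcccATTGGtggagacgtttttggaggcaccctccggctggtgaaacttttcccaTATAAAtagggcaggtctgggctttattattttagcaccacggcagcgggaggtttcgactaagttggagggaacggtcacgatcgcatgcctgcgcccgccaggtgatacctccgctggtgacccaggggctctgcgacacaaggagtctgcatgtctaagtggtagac
Col5a2: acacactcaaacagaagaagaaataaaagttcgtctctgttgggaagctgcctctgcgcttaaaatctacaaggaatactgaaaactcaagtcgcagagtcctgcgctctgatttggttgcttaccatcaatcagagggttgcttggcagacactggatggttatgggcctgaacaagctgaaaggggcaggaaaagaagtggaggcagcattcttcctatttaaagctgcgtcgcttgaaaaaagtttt
Col13a1: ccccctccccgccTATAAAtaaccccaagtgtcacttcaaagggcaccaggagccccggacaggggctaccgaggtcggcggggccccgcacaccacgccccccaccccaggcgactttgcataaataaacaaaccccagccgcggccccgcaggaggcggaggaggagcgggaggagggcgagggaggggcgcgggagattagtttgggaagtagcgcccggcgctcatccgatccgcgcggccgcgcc
Col4a2 to Col4a1: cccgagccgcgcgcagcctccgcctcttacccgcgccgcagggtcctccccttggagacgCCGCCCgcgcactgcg
The Col1a2 window holds TATAAA starting 170 bases before the annotated start and the second motif on the minus strand, Col13a1 holds TATAAA starting 237 bases before it, Col5a2 holds none of the 3 motifs, and the Col4 stretch holds 1 GC box on the minus strand and is 78.9% G and C. A match is a description of letters.

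Most collagen and laminin genes tested were higher in NIL than in RVLM (20 of 26 and 7 of 8) and lower in RVLM than in SON (18 of 26 and 6 of 8). Of 13 integrin genes, 5 (38.5%) were higher and 3 (23.1%) lower in NIL than in RVLM, near the shares of all genes given below. Differences below are on the log2 scale, as the first structure minus the second, from a limma fit over the 19 SHR arrays. Calls required an adjusted p (Benjamini-Hochberg, over all probe sets) under 0.05, and 47 of the 74 genes passed the filter on low intensity. A gene passed more easily where 1 structure was bright, so counts describe the tested genes and not all 74. NIL exceeded RVLM in 32 of the 47 (68.1%), against 37.6% of all genes tested, and fell below it in 5 (10.6%), against 30.2%. The median difference was 1.68 over these genes and 0.10 over all. RVLM fell below SON in 27 (57.4%, background 25.4%) and exceeded it in 3 (6.38%, background 20.3%), with a median of -0.73 against -0.07. NIL exceeded SON in 15 (31.9%), close to the background of 26.5%, and fell below it in 5 (10.6%, background 24.7%). PVN array 3 is in neither of these groups but enters the fit. With it left out, Col3a1, Col18a1, Col8a1 and Itgav were also called higher in NIL than in SON. Col5a1, Col12a1 and Lamc3 were then also called lower, and Col27a1 came under the filter. Where every other array is named below, the other SHR arrays are meant. These comparisons share arrays, and their values are therefore set side by side only. Where called genes had other probe sets that passed the filter, 0 were called the opposite way.

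**Figure D1:**
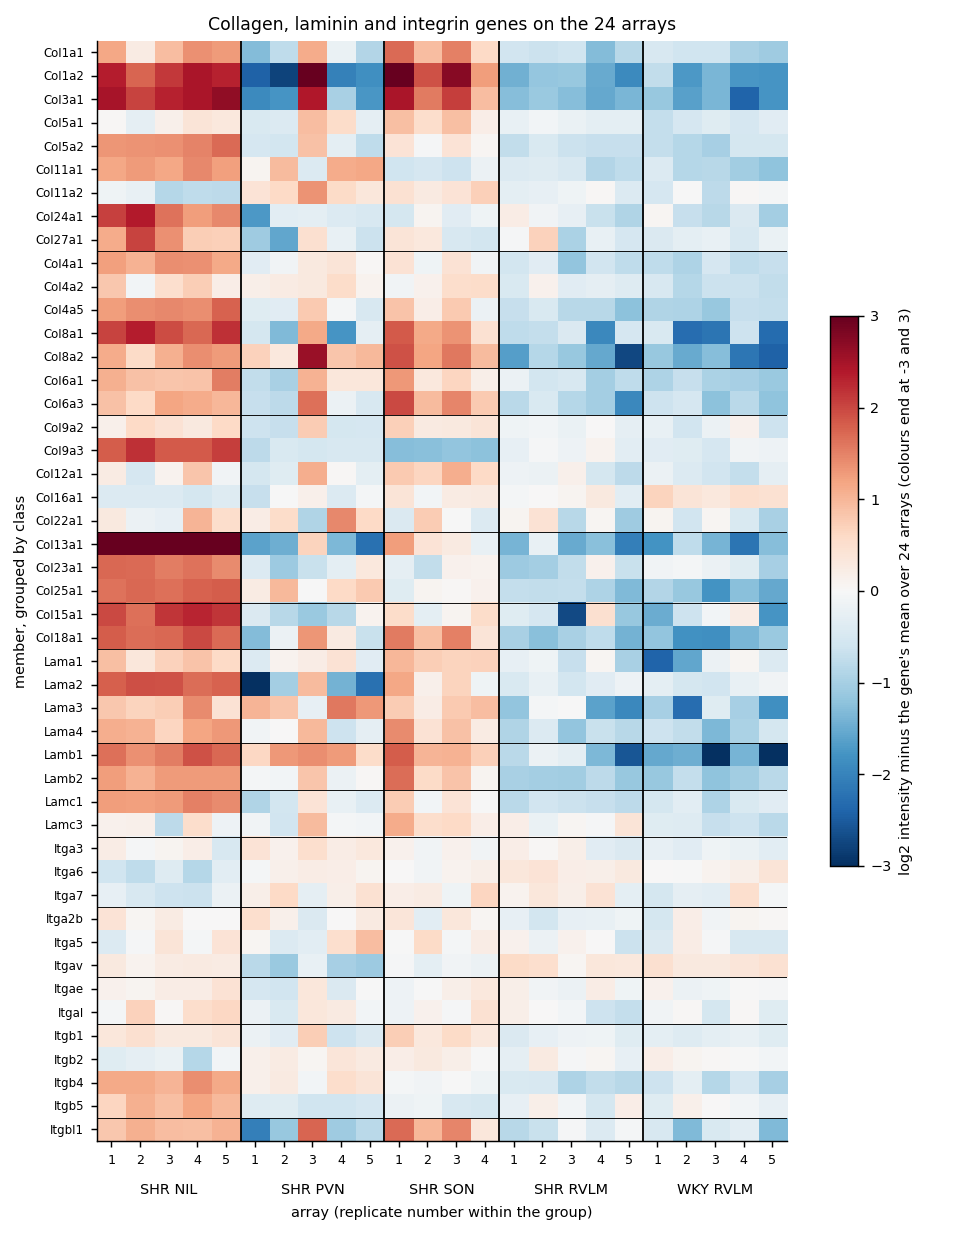
Heat map of the 47 genes tested between structures on all 24 arrays, as log2 intensity minus the gene's own mean over the arrays (colour, red above and blue below), with genes in rows by class and arrays in columns by group. Most collagen and laminin rows are red in NIL, and PVN array 3 differs in colour from the other PVN arrays in Col1a2 and Col3a1.

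Of 9 fibrillar collagen genes tested, 7 were higher in NIL than in RVLM and 6 were lower in RVLM than in SON. Over all genes these shares were 37.6% and 25.4%. Col1a2, the second chain of type I, read 586, 389.5, 502, 632 and 574 in NIL, 21.3, 16.7, 1326, 28.1 and 31.9 in PVN, 1046, 435, 763 and 274 in SON and 42.3, 51.8, 52.3, 40.6 and 30.4 in RVLM. On 4 PVN arrays Col1a2 stayed at or below 31.9, whereas PVN array 3 exceeded every SON array, and NIL and RVLM did not overlap. The difference was 3.54 ± 0.76 (SE), adjusted p = 2.99e-04, for NIL minus RVLM, and -3.62 ± 0.80 (SE), adjusted p = 9.18e-04, for RVLM minus SON. NIL and SON overlapped (-0.08 ± 0.80 (SE), adjusted p = 0.942). Col3a1, the chain of type III found with type I in meninges and vessels, read 638, 469, 563, 624 and 722 in NIL, 30.2, 33.4, 601, 57.8 and 33.9 in PVN, 620.4, 334, 479.9 and 217 in SON and 46.8, 53.0, 47.0, 39.4 and 44.1 in RVLM. PVN array 3 lay among the SON arrays and the other PVN arrays overlapped RVLM. The difference of Col3a1 was 3.61 ± 0.53 (SE), adjusted p = 3.75e-06, for NIL minus RVLM, a 12.2-fold change. Col1a1, the main chain of type I, read 155, 82.5, 131, 179.6 and 167 in NIL, 28.3, 40.8, 149, 59.9 and 37.6 in PVN, 224, 131, 196 and 105 in SON and 46.7, 44.5, 46.0, 27.9 and 39.0 in RVLM. RVLM lay below all SON arrays (-1.89 ± 0.34 (SE), adjusted p = 1.32e-04), and NIL and SON overlapped.

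Type V nucleates fibrils. Its chain Col5a2 read 438, 449, 457, 492 and 566 in NIL, 125, 119.8, 325, 143 and 104 in PVN, 232, 172, 233 and 184 in SON and 106, 127, 113, 108 and 109 in RVLM. NIL exceeded every other array, also PVN array 3, and the difference from SON was 1.22 ± 0.23 (SE), adjusted p = 1.13e-04, and that from RVLM 2.00 ± 0.21 (SE), adjusted p = 3.34e-08. Col5a1 read 58.0 to 90.8 in NIL, 80.6 to 130.5 in SON and 56.7 to 65.7 in RVLM. These values are from its brightest probe set and do not speak for any other probe set of Col5a1. On that probe set, NIL did not pass the test against either (-0.52 ± 0.23, adjusted p = 0.0615, for SON, and 0.26 ± 0.21, adjusted p = 0.299, for RVLM). RVLM was lower there than SON (-0.78 ± 0.23 (SE), adjusted p = 0.00776). Without PVN array 3 the SE was smaller and Col5a1 was called lower in NIL than in SON (-0.52 ± 0.17 (SE), adjusted p = 0.0129). Whether the 2 chains differ from each other was not tested. Col11a1, a type XI chain of thin fibrils, read 159.7, 173, 159, 195 and 167 in NIL, 75.6, 138, 53.4, 155 and 160.3 in PVN, 47.1, 50.5, 46.2 and 63.6 in SON and 53.7, 54.3, 51.3, 38.7 and 41.9 in RVLM. It was high in NIL and on PVN arrays 2, 4 and 5, while PVN array 3 lay among SON. The difference was 1.72 ± 0.21 (SE), adjusted p = 5.61e-07, for NIL minus SON. Col11a2, its partner chain, was lower in NIL, with 92.2, 85.8, 55.0, 59.2 and 58.0 in NIL against 139, 121, 133 and 165 in SON. These groups did not overlap (-1.03 ± 0.20 (SE), adjusted p = 2.23e-04). Against RVLM, Col11a2 in NIL was also lower (-0.44 ± 0.19 (SE), adjusted p = 0.0492), a call lost when any of 13 of the 19 arrays was left out. Col24a1 and Col27a1, further fibrillar chains, were higher in NIL than in SON (1.98 ± 0.28 and 1.27 ± 0.38), although Col27a1 came under the filter when PVN array 3 was left out. Their RVLM and SON values overlapped.

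**Figure D2:**
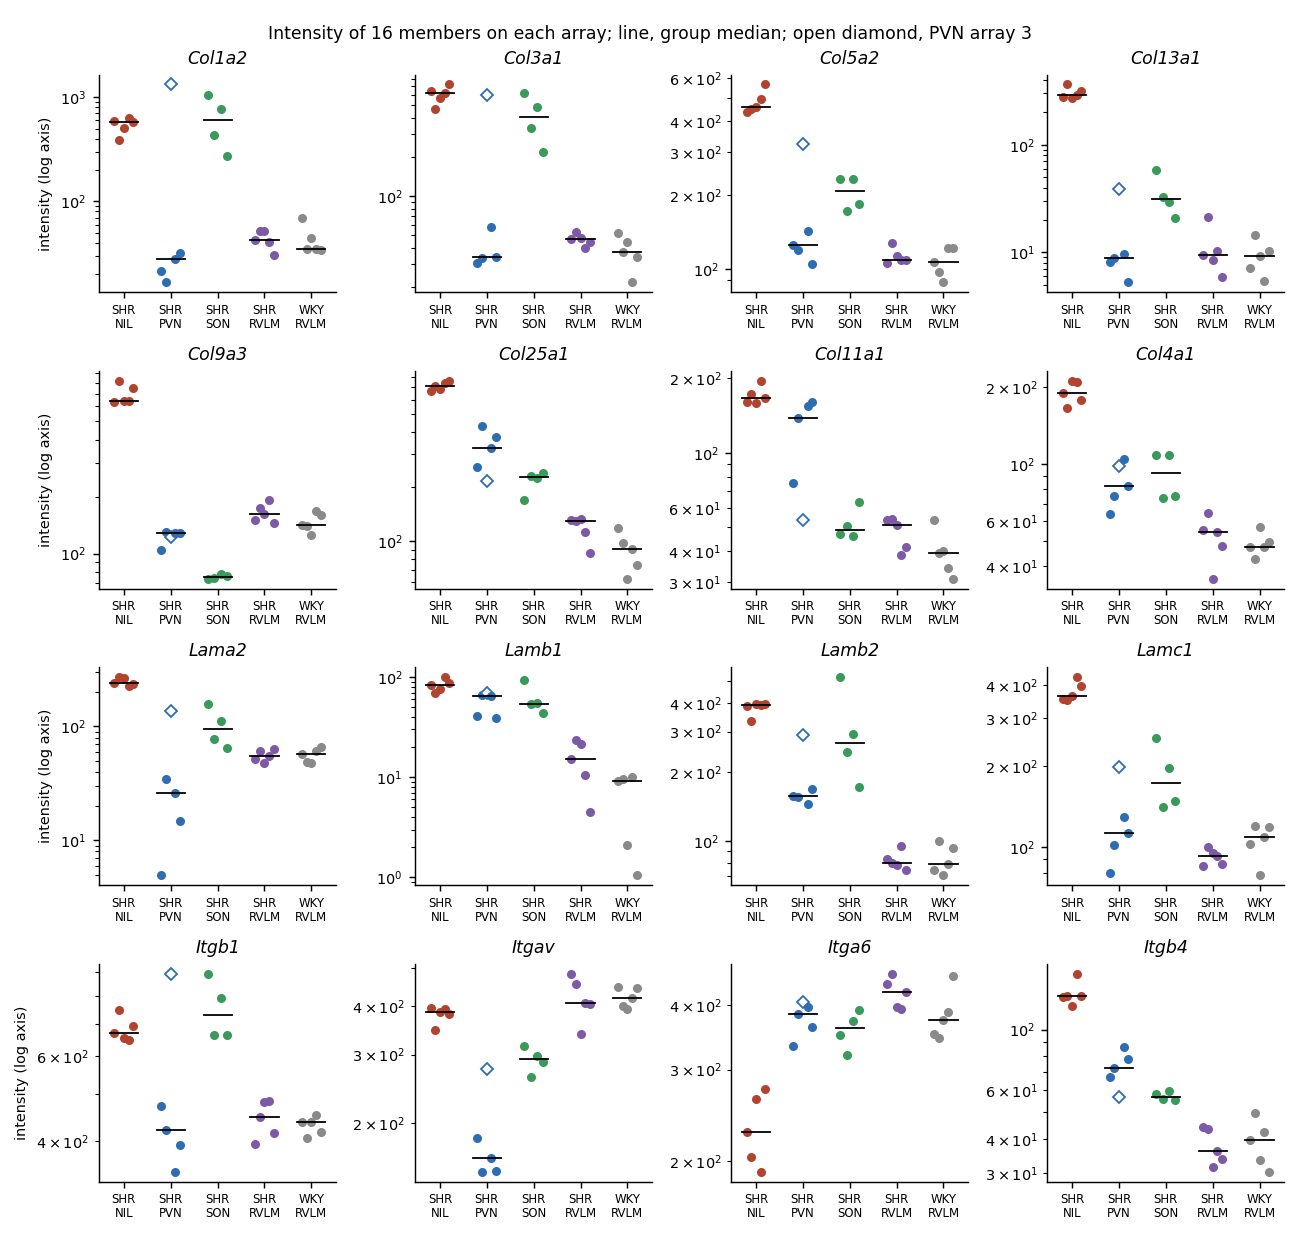
Intensity (log axis) of 16 genes on each array by group (points, 1 per array; line, group median; open diamond, PVN array 3). Col1a2, Col3a1 and Itgb1 show PVN array 3 within or above the SON range and far from the other PVN arrays, while Col9a3, Col25a1 and Col13a1 show NIL apart from all other groups.

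The network collagens, which form sheets, were higher in NIL than in RVLM in 5 of 5 tested and lower in RVLM than in SON in 5 of 5. The shares over all genes were 37.6% and 25.4%. Col4a1, a chain of the main type IV trimer of basement membranes, read 189.7, 165, 212, 209 and 177 in NIL, 63.8, 75.2, 98.2, 105 and 82.2 in PVN, 109, 73.7, 109 and 75.2 in SON and 55.2, 64.1, 35.6, 54.4 and 47.9 in RVLM. NIL lay above all others, PVN and SON overlapped, and 4 of the 5 RVLM values lay below every PVN array. Col4a1 in NIL exceeded SON by 1.07 ± 0.16 (SE), adjusted p = 1.16e-05. Col4a2, the partner chain that starts beside it, read 179, 97.1, 146, 171 and 117 in NIL, 115, 121, 124, 151 and 109 in PVN, 94.5, 112, 148 and 149 in SON and 74.5, 112, 81.2, 84.3 and 78.1 in RVLM. The structures overlapped in Col4a2, although 4 of the 5 RVLM arrays lay below every other SHR array: NIL minus SON was 0.15 ± 0.17 (SE), adjusted p = 0.49, and NIL minus RVLM 0.61 ± 0.16 (SE), adjusted p = 0.00214. The call of Col4a2 for RVLM minus SON (-0.46 ± 0.17 (SE), adjusted p = 0.0329) was lost without any of 5 arrays (SON 3 and 4, RVLM 1, 3 and 5). Col4a5, a chain of a second type IV trimer, read 456, 498, 516, 500.5 and 649.9 in NIL, 147, 149, 326, 181 and 135 in PVN, 341, 217, 326 and 168 in SON and 118, 137, 107, 106 and 80.6 in RVLM. NIL lay above every other array (1.03 ± 0.23 (SE), adjusted p = 7.87e-04, against SON), and RVLM lay below every SON array (-1.14 ± 0.23 (SE), adjusted p = 3.84e-04). Of type VIII, found under endothelia, Col8a1 read 83.1 to 129 in NIL, 34.5 to 89.8 in SON and 6.54 to 18.7 in RVLM. Col8a2 read 14.9, 25.8, 21.3, 16.3 and 7.07 in RVLM, below every other SHR array, against 177, 107, 142 and 90.3 in SON. That difference was -2.91 ± 0.37 (SE), adjusted p = 1.40e-06. In NIL, Col8a2 read 70.6 to 123, which overlapped SON.

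Type VI forms beaded filaments around cells and next to basement membranes. Col6a3 read 89.2, 72.7, 109, 103 and 96.0 in NIL, 29.8, 27.96, 152, 42.7 and 34.4 in PVN, 190.4, 93.5, 133 and 82.8 in SON and 27.5, 35.3, 26.4, 23.7 and 12.7 in RVLM. RVLM lay below every SON array (-2.23 ± 0.38 (SE), adjusted p = 5.66e-05) and below every NIL array. Col6a1 read 107 to 176 in NIL and 29.7 to 53.3 in RVLM, a difference of 1.54 ± 0.28 (SE), adjusted p = 6.22e-05. The chains of both genes assemble with Col6a2, which was under the filter and is given with the dim genes.

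Several collagens that are not fibrillar set the NIL apart. Col13a1, a transmembrane collagen of cell adhesions, read 278, 364, 270.0, 293 and 313 in NIL, 8.05, 8.84, 39.1, 9.71 and 5.24 in PVN, 58.7, 32.8, 29.6 and 20.9 in SON and 9.42, 21.1, 8.56, 10.3 and 5.94 in RVLM. Its NIL arrays lay above all others, with a difference of 3.18 ± 0.43 (SE), adjusted p = 2.38e-06, from SON, and of 4.81 ± 0.41 (SE), adjusted p = 7.92e-10, from RVLM. The RVLM values were below the median of every array, and with pseudocounts of 16 and 64 this last difference was 3.51 and 2.25, still called. PVN array 3 lay within SON and above the other PVN arrays. Col9a3, a chain of type IX that decorates fibrils, read 633, 817, 641, 636 and 746 in NIL, 104, 130.3, 123, 128 and 128 in PVN, 73.5, 74.4, 78.3 and 76.2 in SON and 151, 174, 161, 192 and 144 in RVLM. Here the 4 structures formed separate ranges, of which PVN and RVLM came nearest, at 130.3 and 144: NIL was highest, then RVLM, then PVN, then SON. Col9a3 in NIL exceeded SON by 3.18 ± 0.11 (SE), adjusted p = 3.90e-16, and RVLM exceeded SON by 1.19 ± 0.11 (SE), adjusted p = 1.10e-08. Col25a1, a transmembrane collagen of neurons, read 672, 709.7, 685, 738 and 761 in NIL, 258, 428, 213, 326 and 375 in PVN, 168, 228, 223 and 237 in SON and 131, 129, 132, 113 and 86.6 in RVLM. NIL was highest and RVLM lowest, without overlap between RVLM and any other SHR structure, and PVN array 3 lay within SON. Its difference was 1.73 ± 0.15 (SE), adjusted p = 2.20e-09, for NIL minus SON, and -0.78 ± 0.15 (SE), adjusted p = 2.22e-04, for RVLM minus SON.

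Col23a1, also transmembrane, read 125 to 155 in NIL and at most 58.3 on every other SHR array (1.78 ± 0.26 (SE), adjusted p = 5.62e-06, against SON). Col15a1 and Col18a1 are the multiplexins, whose tails give rise to inhibitors of vessel growth. Col15a1 read 120.0 to 188 in NIL and 31.1 to 56.2 in SON, a difference of 1.81 ± 0.40 (SE), adjusted p = 7.38e-04. Its lower call in RVLM than SON (-0.99 ± 0.40 (SE), adjusted p = 0.0493) was lost when any of 14 arrays was left out, and the groups overlapped. Col18a1 read 141, 128, 132, 158 and 131 in NIL, 16.5, 35.6, 101, 48.2 and 25.3 in PVN, 118, 75.6, 114 and 53.0 in SON and 20.6, 16.96, 20.5, 23.9 and 15.03 in RVLM. RVLM lay below every NIL and SON array (-2.09 ± 0.34 (SE), adjusted p = 3.66e-05), and PVN array 3 lay within SON. Col16a1, a fibril-associated collagen, was lower in NIL, where it read 119, 119, 119, 111 and 122, than in SON (-0.64 ± 0.15 (SE), adjusted p = 0.00124) and RVLM (-0.53 ± 0.14 (SE), adjusted p = 0.00271).

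Of 8 laminin genes tested, 7 (87.5%, background 37.6%) were higher in NIL than in RVLM and 6 (75.0%, background 25.4%) were lower in RVLM than in SON. Lama2, the alpha chain of muscle, nerve and vessel basement membranes, read 242, 270.5, 264, 226 and 238 in NIL, 4.95, 34.7, 136, 26.2 and 14.8 in PVN, 158, 78.1, 112 and 64.8 in SON and 51.5, 60.7, 48.0, 55.6 and 63.7 in RVLM. NIL lay above every other array, and PVN array 3 lay among SON while the other PVN arrays lay below RVLM. Lama2 in NIL exceeded RVLM by 2.06 ± 0.50 (SE), adjusted p = 9.69e-04. Its call over SON (1.34 ± 0.53 (SE), adjusted p = 0.0404) was lost when any of 8 arrays was left out. Lama4, the alpha chain of endothelial laminin, read 63.0 to 99.6 in NIL, 47.3 to 108 in SON and 17.7 to 30.2 in RVLM. RVLM did not overlap NIL or SON in Lama4, but PVN 4, at 26.3, lay below the highest RVLM array, and RVLM minus SON was -1.47 ± 0.28 (SE), adjusted p = 2.43e-04. Lama3 and Lama1, the alpha chains of epithelial and early basement membranes, were lower in RVLM than in SON, with differences of -1.55 ± 0.36 and -1.09 ± 0.21.

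Lamb1, the beta chain of many laminins, read 83.8, 68.9, 76.3, 99.5 and 87.1 in NIL, 40.8, 65.6, 69.6, 64.5 and 38.6 in PVN, 93.7, 53.6, 54.5 and 43.5 in SON and 15.1, 23.4, 21.5, 10.4 and 4.48 in RVLM. RVLM lay below every other SHR array in Lamb1 (-2.11 ± 0.34 (SE), adjusted p = 3.33e-05). Lamb2, the beta chain of vessel and pial laminins, read 387, 335, 397, 393 and 395 in NIL, 157, 155, 289, 145 and 168 in PVN, 519, 244, 293 and 172 in SON and 83.6, 79.9, 78.5, 95.1 and 74.6 in RVLM. RVLM was again lowest without overlap (-1.71 ± 0.24 (SE), adjusted p = 5.10e-06), and NIL overlapped SON, whose array 1 was the brightest of all. Lamc1, the gamma chain that most laminins share, read 355, 351, 363, 427 and 397 in NIL, 80.3, 102, 199, 129 and 113 in PVN, 253, 141, 197 and 148 in SON and 84.9, 99.7, 95.4, 92.4 and 86.7 in RVLM. NIL lay above every other array, with a difference of 1.06 ± 0.19 (SE), adjusted p = 7.27e-05, from SON, and RVLM lay below every SON array (-0.89 ± 0.19 (SE), adjusted p = 5.97e-04).

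**Figure D3:**
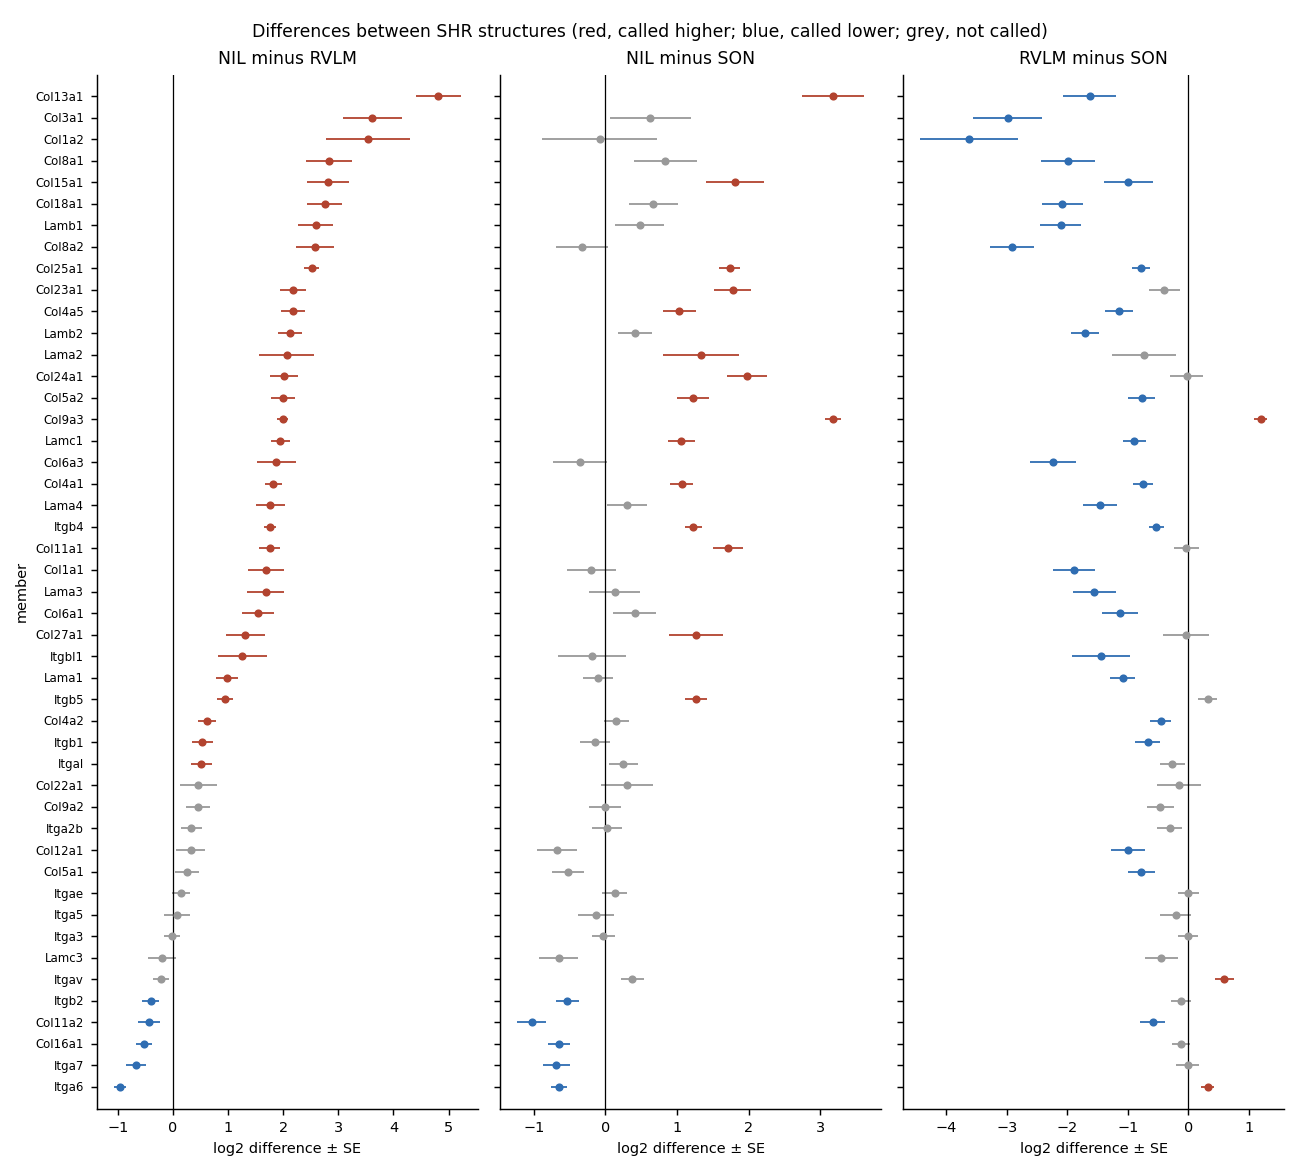
Log2 difference ± SE of the 47 tested genes for NIL minus RVLM, NIL minus SON and RVLM minus SON, ordered by the first (red, called higher; blue, called lower; grey, not called). Col13a1 is highest in the first panel at 4.81 and Itga6 lowest at -0.96.

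Of 13 integrin genes tested, the median difference for NIL minus RVLM was 0.14, close to the 0.10 over all genes. Itga6, the laminin-binding alpha subunit, read 228, 204, 264, 191 and 275 in NIL, 333, 384, 404, 395 and 362 in PVN, 349.6, 320.4, 373 and 392 in SON and 439, 459, 396, 392 and 423 in RVLM. NIL lay below every other array, with a difference of -0.65 ± 0.11 (SE), adjusted p = 6.57e-05, from SON, and of -0.96 ± 0.11 (SE), adjusted p = 6.88e-08, from RVLM. Itga7, a further laminin-binding subunit, read 38.1 to 53.2 in NIL and 54.2 to 93.6 in SON, without overlap (-0.68 ± 0.19 (SE), adjusted p = 0.00448). Itga3, the third of this class, was not called between NIL and SON (-0.03 ± 0.16 (SE), adjusted p = 0.902) or between RVLM and SON (-0.01 ± 0.16 (SE), adjusted p = 0.965). Itgav, the alpha subunit that binds RGD motifs of fibronectin and vitronectin, read 396, 347, 386, 392 and 382 in NIL, 184, 150.4, 276, 163 and 151 in PVN, 315, 263, 298 and 288 in SON and 484, 455, 339, 406 and 404 in RVLM. The PVN arrays other than array 3 were lowest, and array 3 lay within SON. RVLM lay above every SON array (0.59 ± 0.16 (SE), adjusted p = 0.00446), and NIL minus SON was 0.38 ± 0.16 (SE), adjusted p = 0.0554, without a call. Without PVN array 3 the same difference was called (0.38 ± 0.12 (SE), adjusted p = 0.00878).

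Itgb1, the beta subunit of the collagen and laminin receptors, read 672, 750.4, 657, 649.8 and 695 in NIL, 472, 421, 889.9, 346 and 392 in PVN, 891, 666, 793 and 666 in SON and 395, 449, 483, 485 and 417 in RVLM. RVLM lay below every NIL and SON array, and PVN array 3 lay close under the highest SON array. A second probe set of Itgb1 read 109.8 to 119 in PVN, where array 3 lay among the others, and 175 to 243 in SON. It read 309 to 348 in NIL and was called higher there than in SON (0.67, adjusted p = 8.56e-05), whereas the brighter probe set was not (-0.14 ± 0.21 (SE), adjusted p = 0.6). The difference for RVLM minus SON was -0.67 ± 0.21 (SE), adjusted p = 0.0113. NIL minus RVLM was 0.53 ± 0.20 (SE), adjusted p = 0.021, a call lost without RVLM array 1. These 2 differences are those of the brighter probe set. On the second probe set RVLM read 117 to 164, below every NIL and SON array. Itgb4, which pairs with Itga6 on basement membranes, read 132, 133, 122, 159.8 and 132 in NIL, 67.0, 72.3, 56.9, 86.5 and 78.4 in PVN, 58.0, 55.8, 59.8 and 55.2 in SON and 44.3, 43.4, 31.5, 36.0 and 33.7 in RVLM. NIL lay above and RVLM below all other SHR arrays, with 1.23 ± 0.12 (SE), adjusted p = 2.10e-08, for NIL minus SON, and -0.53 ± 0.12 (SE), adjusted p = 0.00121, for RVLM minus SON. Itgb5, which pairs with Itgav, read 162 to 235 in NIL and 72.1 to 94.7 in SON (1.26 ± 0.16 (SE), adjusted p = 5.71e-07). Itgb2, the leukocyte beta subunit, read 45.1, 47.9, 50.0, 31.9 and 54.3 in NIL and 66.2, 70.8, 64.8 and 57.5 in SON, without overlap (-0.53 ± 0.16 (SE), adjusted p = 0.00867). Its lower call against RVLM (-0.41 ± 0.15 (SE), adjusted p = 0.022) was lost without NIL array 4 or RVLM arrays 2 or 4. Markers of microglia and macrophages, cells that carry Itgb2, summed to 1486 to 1898 in NIL, 1179.7 to 1557 in SON and 763 to 971 in SHR RVLM, and their part in these values was not tested. Itgbl1 read 56.9, 68.0, 61.9, 60.8 and 66.6 in NIL, 7.89, 14.9, 109, 15.4 and 18.7 in PVN, 105, 64.5, 89.9 and 41.1 in SON and 18.1, 20.5, 31.8, 24.7 and 31.2 in RVLM. PVN array 3 lay above every SON array in Itgbl1, and its RVLM minus SON difference was -1.44 ± 0.47 (SE), adjusted p = 0.0166, a call lost without SON array 1.

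PVN was next compared with SON, the other hypothalamic nucleus with vasopressin and oxytocin neurons. Of 9 fibrillar collagen genes tested, Col1a1, Col1a2 and Col3a1 were lower in PVN and Col11a1 was higher. Lama2 was also lower, and Col9a3 and Col25a1 were higher. Without PVN array 3, 2 more fibrillar genes were called lower, and Col27a1 came under the filter. These were Col5a1 (-0.77 ± 0.18 (SE), adjusted p = 0.00341) and Col5a2 (-0.72 ± 0.13 (SE), adjusted p = 2.26e-04). With all 5 PVN arrays, 14 of 47 genes (29.8%) were lower, against 7.12% of all genes, and 3 (6.38%) were higher, against 9.02%. Without PVN array 3, 24 of 46 (52.2%) were lower, against 11.4%, and 4 (8.70%) were higher, against 11.6%. The median moved from -0.42 to -0.70, while that of all genes was 0.01 in both. Col1a2 had the largest difference: -3.36 ± 0.80 (SE), adjusted p = 0.00757, with array 3 and -4.53 ± 0.28 (SE), adjusted p = 3.69e-11, without it. Col3a1 went from -2.53 ± 0.57 (adjusted p = 0.00498) to -3.34 ± 0.22 (SE), adjusted p = 1.37e-10, and Lama2 from -1.95 ± 0.53 (adjusted p = 0.0163) to -2.58 ± 0.35 (SE), adjusted p = 8.42e-06. Itgbl1 was -1.75 ± 0.47 (SE), adjusted p = 0.0159, with array 3 and -2.37 ± 0.27 (SE), adjusted p = 9.24e-07, without it. Markers of meningeal fibroblasts, cells that make fibrillar collagen at the brain surface, were lower in PVN than SON in 8 of 8 tested, with and without array 3. Their summed intensity was 831 to 1037 on 4 PVN arrays, 11046 on PVN array 3 and 13259, 9281, 11554 and 8086 on SON arrays 1 to 4. Col1a2 too was highest in SON on array 1 and lowest on array 4, and the part of these cells in the PVN and SON values was not tested.

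Lama1 and Col9a3 were called without overlap between the PVN and SON arrays. Lama1 read 24.4, 34.9, 37.7, 43.5 and 25.4 in PVN and 64.2, 53.9, 51.7 and 52.0 in SON (-0.74 ± 0.21 (SE), adjusted p = 0.0202, and -0.81 ± 0.22 (SE), adjusted p = 0.00891, without PVN array 3), and this call was lost without PVN array 5 or SON array 1. Col9a3 was higher in PVN by 0.72 ± 0.11 (SE), adjusted p = 1.73e-04, and by 0.71 ± 0.11 (SE), adjusted p = 6.26e-05, without array 3. Col11a1 was higher by 1.08 ± 0.21 (SE), adjusted p = 0.0017, and without PVN array 3 by 1.32 ± 0.15 (SE), adjusted p = 9.93e-07. Col25a1 was higher by 0.58 ± 0.15 (SE), adjusted p = 0.0125, a call lost without SON array 1, as were those of Lama2, Col8a1, Col13a1 and Itgbl1, and by 0.70 ± 0.13 (SE), adjusted p = 5.88e-04, without PVN array 3. Itgav was lower in PVN (-0.66 ± 0.16 (SE), adjusted p = 0.00786, and -0.83 ± 0.12 (SE), adjusted p = 2.46e-05, without PVN array 3). Itgb1 (-0.63 ± 0.21 (SE), adjusted p = 0.0445), Lamc1 (-0.57 ± 0.19 (SE), adjusted p = 0.0455) and Col9a2 (-0.70 ± 0.22 (SE), adjusted p = 0.0382) were lower by calls that were lost without most or many single arrays, 17, 15 and 8 of 19. Without PVN array 3 they were -0.87 ± 0.14 (SE), adjusted p = 1.05e-04, -0.77 ± 0.14 (SE), adjusted p = 3.98e-04, and -0.99 ± 0.13 (SE), adjusted p = 8.49e-06. The second probe set of Itgb1 did not overlap between the nuclei, with 109.8 to 119 on all 5 PVN arrays and 175 to 243 in SON. The count of 17 calls fell to 6 without SON array 1 and to 11 without SON array 3. It also fell to 6 when only the PVN and SON arrays entered the fit, where Col1a2 had an adjusted p of 0.0673 and Col3a1 of 0.0547.

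**Figure D4:**
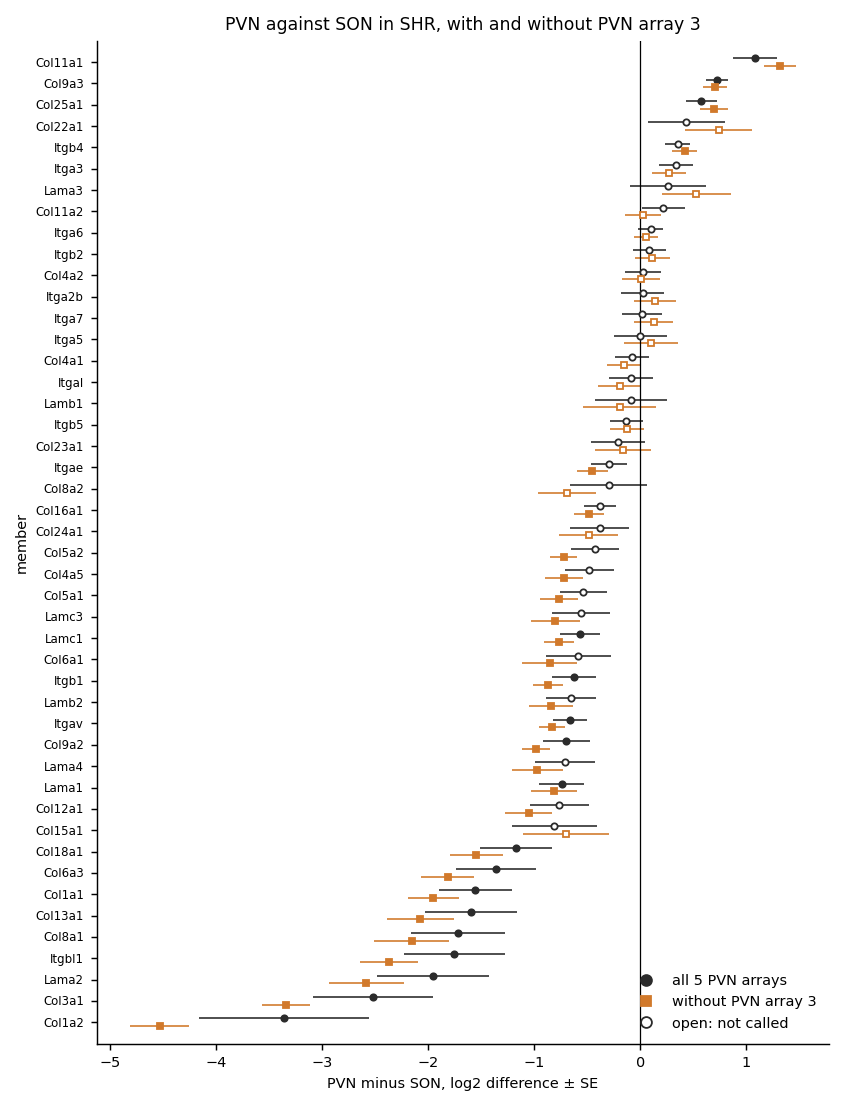
PVN minus SON log2 difference ± SE of 46 genes with all 5 PVN arrays (black circles) and without PVN array 3 (orange squares); open symbols were not called. Leaving out array 3 moves Col1a2, Col3a1, Lama2 and Itgbl1 to lower values and narrows their error, Col1a2 from -3.36 to -4.53.

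Setting the other structures against PVN completed the order. NIL exceeded PVN in 30 of 47 genes (63.8%, background 29.8%) and fell below it in 5 (10.6%, background 27.4%). Without array 3, 29 of 46 were higher (background 31.1%) and 4 lower (background 28.1%). RVLM fell below PVN in 13 (27.7%), near the background of 26.3%, and exceeded it in 3 (6.38%, background 19.3%). Without array 3, the counts were 12 lower (26.1%, background 26.7%) and 9 higher (19.6%, background 21.5%), near the share of all genes in both directions. Lama2 was among the genes that RVLM then exceeded, at 1.86 ± 0.33 (SE), adjusted p = 6.94e-05, and with array 3 it was 1.23 ± 0.50 (SE), adjusted p = 0.0504. Col1a2, with -0.26 ± 0.76 (SE), adjusted p = 0.807, was not called, and without array 3 it was higher in RVLM (0.91 ± 0.27 (SE), adjusted p = 0.00678). Itgav was higher in RVLM than in PVN by 1.26 ± 0.15 (SE), adjusted p = 7.10e-07, the groups did not overlap, and without array 3 it was 1.43 ± 0.12 (SE), adjusted p = 7.03e-10. Col8a2 (-2.61 ± 0.34 (SE), adjusted p = 2.51e-06) and Lamb1 (-2.02 ± 0.32 (SE), adjusted p = 2.60e-05) were lower in RVLM. Without array 3 these were -2.22 ± 0.26 (SE), adjusted p = 2.53e-07, and -1.91 ± 0.33 (SE), adjusted p = 4.36e-05. In Col25a1 the order was NIL, PVN, SON, RVLM, each step called with all arrays, the PVN to SON step being lost without SON array 1.

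Dim genes were not tested in these fits: 26 of the 74 were under the filter in every fit, among them Itga1, Itga8, Itgam, Col6a2 and Lama5. Several were nonetheless bright in 1 structure. Lama5, the alpha chain of vascular and epithelial basement membranes, read 144, 90.4, 147, 152 and 115 in NIL, 27.99, 45.9, 24.7, 29.3 and 21.5 in PVN, 62.1, 37.8, 46.0 and 6.86 in SON and 4.73, 4.59, 1.87, 3.34 and 4.15 in RVLM. On this probe set, the brightest of Lama5, NIL lay above every other array and RVLM below. That separation does not speak for any other probe set of Lama5. Col6a2, the type VI partner of Col6a1, read 78.7, 125, 56.9, 132 and 84.0 in NIL, 12.3, 18.7, 70.2, 6.79 and 10.5 in PVN and 113, 40.8, 61.1 and 18.6 in SON. In RVLM its lowest value was 1.12 and its median 3.29, and every array lay below SON. PVN array 3 lay within SON. Another probe set of Col6a2 read 7.75 to 21.5 in NIL, 16.2 to 24.4 in SON and 6.87 to 19.9 in SHR RVLM, ranges that overlapped. Chosen after their values were seen, Col19a1 (a fibril-associated collagen) read 105, 105, 119.6, 70.6 and 109 in NIL and at most 30.3 on every other SHR array, and Col4a6 (type IV) read 75.9 to 111 in NIL and at most 40.3 elsewhere in SHR. Itgb6, the epithelial beta subunit that activates latent TGF-beta and was also chosen after its values were seen, read 56.2, 61.7, 13.5, 65.9 and 63.3 in PVN against 17.6, 17.7, 17.2 and 17.7 in SON. PVN array 3 lay below SON and the other 4 PVN arrays lay far above. In a limma fit without the filter, Itgb6 was not called for PVN minus SON (1.40 ± 0.72 (SE), adjusted p = 0.269, with array 3 included). The parvocellular markers were low on array 3 as well, and their link to Itgb6 was not tested. Itga8 read 38.9, 37.2, 37.6 and 31.4 in SON and 14.7, 6.58, 12.0, 11.6 and 0.654 in NIL. On another probe set of Itga8 these groups overlapped, with 5.93 to 16.7 in SON and 2.07 to 38.0 in NIL. Itgam, a marker of microglia, stayed between 7.14 and 29.7 on all SHR arrays.

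The strain comparison set 5 SHR against 5 WKY arrays of the RVLM, the medullary region that drives sympathetic outflow. Between the strains, 34 of the 35 tested genes were not called by limma. Of 35 genes tested, 1 was lower in SHR (2.86%, background 0.865%) and 0 were higher (background 0.548%), and 4 had an unadjusted p under 0.05. The called gene was Col16a1, which read 153, 160.3, 168, 196 and 127 in SHR and 253, 206, 199, 227 and 219 in WKY. Every SHR value lay below every WKY value, and the difference was -0.50 ± 0.12 (SE), adjusted p = 0.0381, a 1.41-fold lower level. This call was lost when any of 8 of the 10 arrays was left out (SHR 1, 2, 3 or 5, WKY 1, 2, 4 or 5), with an adjusted p of 0.119 at most, and in 5 other settings. Lamc3, a laminin gamma chain of the brain surface named after its values were seen, read 59.3, 45.5, 54.2, 50.3 and 68.3 in SHR and 40.6, 39.95, 31.9, 33.7 and 29.6 in WKY. These did not overlap either, but the test missed the threshold (0.63 ± 0.16 (SE), adjusted p = 0.0595). It was called with values as deposited, without a variance trend, with array weights and without SHR array 2, and in the last 3 of these Col16a1 was not.

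Among the basement membrane chains, Col4a2 read 74.5, 112, 81.2, 84.3 and 78.1 in SHR and 73.6, 56.9, 65.4, 65.7 and 61.4 in WKY. Again the arrays did not overlap and the test missed the threshold (0.37 ± 0.12 (SE), adjusted p = 0.216). Its neighbour Col4a1 differed by 0.02 ± 0.15 (SE), adjusted p = 0.977. Lamc1 (-0.22 ± 0.13 (SE), adjusted p = 0.658), Lamb2 (-0.04 ± 0.13 (SE), adjusted p = 0.955) and Lama2 (-0.03 ± 0.15 (SE), adjusted p = 0.97) were not called. Of the fibrillar chains, Col3a1 differed by 0.31 ± 0.19 (SE), adjusted p = 0.658, Col1a2 by 0.00 ± 0.20 (SE), adjusted p = 0.998, and Col1a1 by -0.07 ± 0.17 (SE), adjusted p = 0.926. Of the receptors, Itgb1 (0.01 ± 0.10 (SE), adjusted p = 0.978), Itga6 (0.12 ± 0.10 (SE), adjusted p = 0.78), Itga7 (0.25 ± 0.19 (SE), adjusted p = 0.74) and Itgav (-0.05 ± 0.10 (SE), adjusted p = 0.914) were not called. The lowest and highest differences over the 35 genes were -0.50 and 0.63, and their median was 0.03, against -0.03 over all genes. A missed threshold does not show equal levels. The other structures have no WKY arrays analysed here.

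**Figure D5:**
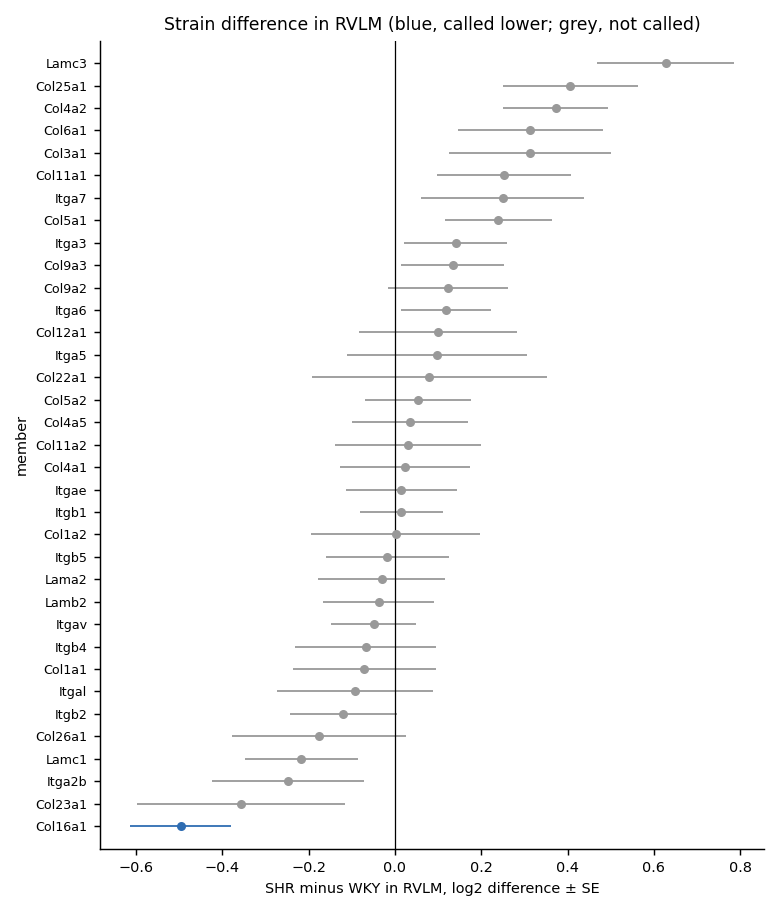
SHR minus WKY log2 difference ± SE in RVLM for the 35 tested genes (blue, called lower; grey, not called). Col16a1 is lowest at -0.50 and Lamc3 highest at 0.63, and the remaining points lie between -0.36 and 0.41.

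Other matrix genes were counted in the same fits. Of all genes tested, 37.6% were higher and 30.2% lower in NIL than in RVLM. In RVLM against SON, 20.3% were higher and 25.4% lower. In PVN against SON, 9.02% were higher and 7.12% lower, and without PVN array 3 these were 11.6% and 11.4%. Enzymes and chaperones that modify and cross-link collagen were higher in NIL than in RVLM in 16 of 16 tested (median 1.33 against 0.10 over all genes), and lower in RVLM than in SON in 11 of 16. Loxl1, a cross-linking oxidase, differed by 3.29 ± 0.38, adjusted p = 9.13e-08, and Pcolce, an enhancer of procollagen processing, by 3.04 ± 0.67, adjusted p = 3.97e-04, for NIL minus RVLM. Serpinh1, the collagen chaperone, differed by -1.39 ± 0.15, adjusted p = 1.31e-07, for RVLM minus SON. Basement membrane partners were higher in NIL than in RVLM in 10 of 12 and lower in RVLM than in SON in 10 of 12. Nid1, which links laminin to type IV collagen, differed by -2.52 ± 0.33, adjusted p = 2.95e-06, for RVLM minus SON. Proteoglycans and glycoproteins of fibrils were higher in NIL than in RVLM in 12 of 17 (70.6%) and lower in 2. They were lower in PVN than in SON in 11 of 17 (64.7%) and higher in 1, and without PVN array 3 lower in 12 (70.6%). Among them Dcn, a small proteoglycan that binds fibrils, differed by 3.85 ± 0.46, adjusted p = 1.68e-07, for NIL minus RVLM. The perineuronal matrix, the lectican and hyaluronan net around neurons, differed in direction, with 6 of 8 tested lower and 1 higher in NIL than in RVLM. Hapln2, a link protein made by oligodendrocytes and found at nodes of Ranvier, differed by -5.13 ± 0.19, adjusted p = 5.33e-16. Oligodendrocyte and Schwann markers were lower in NIL than in RVLM in 5 of 5 tested, with sums of 777 to 865 in NIL and 11018 to 13811 in SHR RVLM, and their part in this value was not tested. Tnc was the 1 gene higher, by 2.68 ± 0.24, adjusted p = 1.74e-09.

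Matrix proteases and their inhibitors were higher in NIL than in RVLM in 9 of 17 (52.9%) and lower in 3 (17.6%), with Mmp2 at 2.76 ± 0.29, adjusted p = 2.40e-08, and Adamts4 at -4.27 ± 0.19, adjusted p = 2.25e-14. Soluble ligands and membrane partners of integrins were higher in 4 of 11 (36.4%), near the background, and lower in 7 (63.6%). Spp1, the RGD ligand osteopontin, differed by -4.30 ± 0.22, adjusted p = 1.57e-13. Cytoplasmic adhesion genes were higher in 7 of 17 (41.2%) and lower in 4 (23.5%), near the shares of all genes, with Flna at 1.72 ± 0.33, adjusted p = 9.50e-05. Between strains, 3 of the 88 genes of these lists that were tested were lower in SHR (3.41%, background 0.865%) and 0 were higher: Fn1, fibronectin (-0.68 ± 0.11, adjusted p = 0.00184), Mmp14 (-0.59 ± 0.13, adjusted p = 0.0245), and Plod1, a collagen lysyl hydroxylase (-0.43 ± 0.11, adjusted p = 0.0485).

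The meningeal fibroblast markers were also read in the other structures. Of the 10 on the array, 3 (Dcn, Lum and Ogn) are also in the list of fibril proteoglycans. Their summed intensity ran from 7652 to 9499.7 in NIL and from 8086 to 13259 in SON. In RVLM it was 2718 to 4241 for SHR and 3321 to 5507 for WKY. Markers of mural cells, the pericytes and smooth muscle of vessels, summed to 463 to 537 in NIL, 624 to 1158 in SON, 332 to 459 on 4 PVN arrays, 1358 on PVN array 3 and 466 to 538 in RVLM. Endothelial markers gave sums of 1373 to 1602 for NIL, of 1572 to 2284 for SON, of 1590.3 to 2259 for PVN and of 1468 to 1684 for SHR RVLM. The part of these cell types in the collagen, laminin and integrin differences was not tested. Astrocyte markers summed to 1117 to 1318 in NIL and 5485 to 10880.1 in the other SHR structures, and oligodendrocyte and Schwann markers to 777 to 865 in NIL and 2494 to 13811 in the others. Between strains, Ttr, a choroid plexus marker, was lower in SHR (-1.11 ± 0.27, adjusted p = 0.0485), and the summed choroid plexus markers were 118 to 161 in SHR and 169 to 304 in WKY. Their part in the strain values was likewise not tested.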

How the data were processed

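RNA of 24 pools was measured on Affymetrix rat arrays. The deposited values are intensities that the authors obtained with GCOS 1.2, per the submitters' processing notes; the scaling was not given in the sources used here. Of 31099 probe sets, 57 controls were left out. Values were taken to log2 with no pseudocount, each array was shifted to a common median, and probe sets under the 40th percentile of mean log2 were dropped, leaving 18625. Differences were fitted with limma 3.58.1 in R 4.3.3 (lmFit, eBayes with trend), over 19 SHR arrays for structures and 10 RVLM arrays for strain. Calls are at a Benjamini-Hochberg adjusted p under 0.05 over all probe sets. P-values measure the spread between pools. The number of arrays limits the precision. The code was tested on simulated data.

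The members and gene lists were chosen with earlier results of these data known. Named genes are the called members with the largest differences (at most 12 per direction and comparison), a fixed set of chains and receptors, and at most 4 called genes per list. Deviations of same-numbered arrays correlated at 0.09 to 0.18 for PVN with SON, above 0 in every pair. They correlated at -0.06 to 0.04 for the other SHR structures compared. Between the strains, which cannot share rats, the values were -0.09 to 0.11. The numbers were not taken as pairing, and whether PVN and SON pools share rats is not known. Alternatives covered scaling, pseudocount, filter, variance trend, array weights, replicate block, probe set choice, the arrays in the fit and leaving out each array.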

Additional observations from a re-analysis of the deposited data

Results flagged for a closer look

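Single arrays were compared with the rest of their group by Dixon's ratio of gap to range, in 205 pairs of a gene and a group of 4 or 5 arrays. In 27 of them 1 array stood apart, where chance sets apart about 1 in 20 groups. PVN array 3 accounted for 18, all of them high, and by the same ratio it stood apart on the high side in 6.41% and on the low side in 2.97% of all 10596 genes tested between structures. The first intensities, with the range of the other PVN arrays, were Col11a2 at 256 against 127 to 152, Col12a1 at 99.0 against 32.4 to 47.7, Col13a1 at 39.1 against 5.24 to 9.71, Col1a1 at 149 against 28.3 to 59.9, Col1a2 at 1326 against 16.7 to 31.9 and Col3a1 at 601 against 30.2 to 57.8. Further values were Col4a5 at 326 against 135 to 181, Col5a2 at 325 against 104 to 143, Col6a3 at 152 against 27.96 to 42.7, Col8a1 at 54.9 against 7.33 to 20.8, Col8a2 at 282 against 59.0 to 92.3 and Col9a2 at 148 against 54.1 to 61.4. The remaining values on that array were Itgav at 276 against 150.4 to 184, Itgb1 at 889.9 against 346 to 472 (a second probe set of Itgb1 read 118 there, against 110 to 119), Itgbl1 at 109 against 7.89 to 18.7, Lama2 at 136 against 4.95 to 34.7, Lama4 at 79.2 against 26.3 to 40.5 and Lamb2 at 289 against 145 to 168. 

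The other 9 lay on 6 arrays. The 205 pairs came from 41 genes read on the same arrays and are not independent, so this number cannot be set against chance. Intensities beside the range of their group were Col16a1 on NIL 4 at 111 against 119 to 122, Col23a1 on RVLM 4 at 51.7 against 21.9 to 29.6, Col24a1 on PVN 1 at 9.88 against 23.4 to 26.4, Col4a2 on RVLM 2 at 112 against 74.5 to 84.3 and Col6a1 on NIL 5 at 176 against 107 to 126. Also set apart were Col9a3 on PVN 1 at 104 against 123 to 130.3, Itgav on NIL 2 at 347 against 382 to 396, Itgb4 on NIL 4 at 159.8 against 122 to 133 and Lamb2 on NIL 2 at 335 against 387 to 397.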

How the results depend on the processing

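No called gene changed sign under any alternative. The count of genes called between strains was 1, and it was 2 with values as deposited, 0 without the filter, 0 with the replicate block, 0 with all 24 arrays in the fit and 0 to 1 with each array left out. The gene called is Lamc3, higher in SHR, and not Col16a1 without a variance trend, with array weights and without SHR RVLM array 2, and with values as deposited both are called. For PVN minus SON, 17 genes were called, against 11 with the filter at the 60th percentile, 27 with array weights, 6 with only the arrays of the 2 structures and 6 to 28 with each array left out (6 without SON array 1, 28 without PVN array 3). For NIL minus SON, 20 were called, and 35 with only the arrays of the 2 structures. With the filter at the 60th percentile, which tests fewer genes, 19 rather than 30 were called for RVLM minus SON and 22 rather than 37 for NIL minus RVLM. The replicate block gave 15, 22, 29 and 36 for PVN minus SON, NIL minus SON, RVLM minus SON and NIL minus RVLM, and the numbers are not known to pair the arrays. Leaving out each array gave 18 to 26, 27 to 33 and 34 to 37 for the last 3. The cause of these shifts was not tested. Dim genes, 27 of the 74 between structures, are limited by signal over background.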

Other observations

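Col2a1, the chain of cartilage type II, was chosen after its values were seen. The probe set that stands for it, which has the highest mean log2 intensity over the arrays, was under the filter, whereas another of its probe sets passed. That one read 97.9 to 139 in NIL and had a lowest value of 2.06 and a median of 8.20 in SHR RVLM, where every array lay below NIL.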
